A study of Mus musculus with 20 samples.

Results

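The BCL2 family genes described here are 10 genes whose proteins decide whether the mitochondrial outer membrane stays sealed. They were chosen by symbol, after the Ensembl identifiers of the exonic count table were stripped of their version and matched to mouse gene names, and 10 of 10 were found among 78258 genes in the table. All 10 passed the filter on low counts, as did 28564 genes in all. The 4 anti-apoptotic members were Bcl2, Bcl2l1 (BCL-XL), Bcl2l2 (BCL-W) and Mcl1. The 2 effectors were Bax and Bak1, and the 4 BH3-only members were Bbc3 (PUMA), Bcl2l11 (BIM), Hrk (Harakiri) and Pmaip1 (NOXA).

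The libraries were poly(A) RNA-seq of mouse dorsal root ganglia (DRG) L4 to L6, the clusters of sensory neurons and their glia whose axons run in the sciatic nerve. There were 20 libraries from 10 male mice, 5 per genotype, with the transected (ipsilateral) and the intact (contralateral) side of each mouse sequenced separately. The conditional knockout (cKO) mice were Ahr fl/fl with Thy1CRE-ERT2/EYFP, a tamoxifen-inducible Cre driven by the neuronal Thy1 promoter, and the controls carried Ahr f/f or f/+ alleles; their titles call them wildtype and their library names give ff. Ahr encodes the aryl hydrocarbon receptor, a ligand-activated transcription factor. Both genotypes received tamoxifen at 100 mg/kg intraperitoneally once a day for 5 days from 17 weeks of age, had one sciatic nerve cut 4 weeks later and were sampled 1 day after that, between ZT2 and ZT4. One label field names a spinal cord injury instead of the nerve transection of the protocol, and the protocol was followed. The contralateral ganglia came from injured mice, so no ganglion was from an uninjured animal, and cells outside the Thy1 promoter's reach keep Ahr.

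In the intrinsic death pathway, BAX and BAK1 form pores in the mitochondrial membrane, the anti-apoptotic members bind and restrain them, and BH3-only proteins tip the balance by occupying the anti-apoptotic members or by activating the effectors directly. NOXA binds MCL1 by preference, whereas PUMA and BIM bind all the anti-apoptotic proteins. In sensory and sympathetic neurons, axon injury and loss of trophic support are known to engage JNK, c-Jun and ATF3, and Hrk, Bcl2l11 and Bbc3 are classical death-inducing genes of neurons deprived of nerve growth factor. Adult sensory neurons mostly survive the first days after axotomy.

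The libraries held 76.2 to 118.5 M counts. The lowest count of any member in any library was 52, for Hrk, and the highest was 19191, for Bcl2l2. Ahr, the targeted gene, was listed at 21.3, 24.6, 23.8, 27.2 and 24.4 CPM (counts per 1 M counts of the library, after TMM scaling of the library sizes) in the contralateral controls and at 19.5, 20.4, 21.0, 20.5 and 20.4 CPM in the contralateral cKO mice, groups that did not overlap. Its log2 fold change there was -0.25 (SE 0.066, edgeR quasi-likelihood test with Benjamini-Hochberg adjustment, adjusted p = 0.103), so the fall did not pass the threshold. On the ipsilateral side it was -0.11 (SE 0.066, edgeR adjusted p = 1.0), and transection raised Ahr in both genotypes, by 0.50 in controls and 0.65 in cKO mice. Over a whole ganglion, fewer cells of a type and less RNA per cell cannot be told apart.

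Markers of sensory neurons were present in every library, with a summed level of 14700 to 17600 CPM over 20 genes and no gene at 0 in any group. After transection 6 of 20 neuronal markers were called lower in controls and 4 of 20 in cKO mice, and none of the 20 was called higher, where 16.0% and 15.1% of all genes tested were called lower. Markers of other cells were also present. Of all genes tested, 13.8% were called higher after transection in controls and 16.2% in cKO mice. In controls, transection left 3 of 7 endothelial markers called higher (median 0.40 on the log2 scale, 7 of 7 above 0), 2 of 6 satellite glial (0.13), 1 of 10 Schwann cell (0.08) and 1 of 13 macrophage markers (0.41, 13 of 13 above 0). No neutrophil (0.56, 8 of 8 above 0) or fibroblast marker (0.32, 6 of 6 above 0) was called there. In cKO mice 2 of 6 satellite glial (0.01) and 1 of 10 lymphocyte markers (-0.21) were called higher, and 0 of 7 endothelial (0.07) and 0 of 13 macrophage markers (0.145) by edgeR. Uncalled cKO medians were -0.48 for fibroblast (1 of 6 above 0), -0.41 for erythroid (0 of 5) and -0.12 for neutrophil markers (1 of 8). On the contralateral side all 6 fibroblast, all 13 macrophage and all 8 neutrophil markers lay above 0 in the cKO against control comparison, with medians of 0.81, 0.31 and 0.72 on the log2 scale, although none of these markers was called. The summed fibroblast markers ranged from 801 to 1360 CPM in contralateral controls and from 934 to 2240 CPM in contralateral cKO mice. Ipsilaterally, 0 of 6 satellite glial, 0 of 10 Schwann cell and 0 of 7 endothelial markers lay above 0 between genotypes (medians -0.117, -0.09 and -0.124). For fibroblast, macrophage and neutrophil markers it was 3 of 6, 3 of 13 and 6 of 8 (0.007, -0.078 and 0.061). None of these ipsilateral markers was called. In the interaction the medians were -0.78 for fibroblast, -0.34 for macrophage, -0.70 for neutrophil and -0.33 for endothelial markers. Erythroid markers had medians of 0.467 contralaterally and -0.445 in the interaction, and lymphocyte markers, which were low, went the other way (-0.645 and 0.123). The part of these cells in the members' values was not tested.

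The 5 comparisons set ipsilateral against contralateral ganglia within controls and within cKO mice, the genotypes on either side of the body, and the 2 responses to transection against each other (the interaction). A member was called where its adjusted p over all 28564 genes was under 0.05. After transection in controls 5 of 10 members were called, 3 higher and 2 lower, where 29.9% of all genes tested were called, 13.8% higher and 16.0% lower. In cKO mice 6 of 10 were called, 4 higher and 2 lower, against 31.3% of all genes, 16.2% higher and 15.1% lower. The groups of 5 did not overlap for 5 members in controls and 5 in cKO mice, against 23.6% and 20.2% of all genes. The members' median log2 fold change was 0.105 in controls and 0.026 in cKO mice, beside -0.0047 and -0.030 over all genes. The calls ran in both directions and covered each of the 3 roles.

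**Figure D1:**
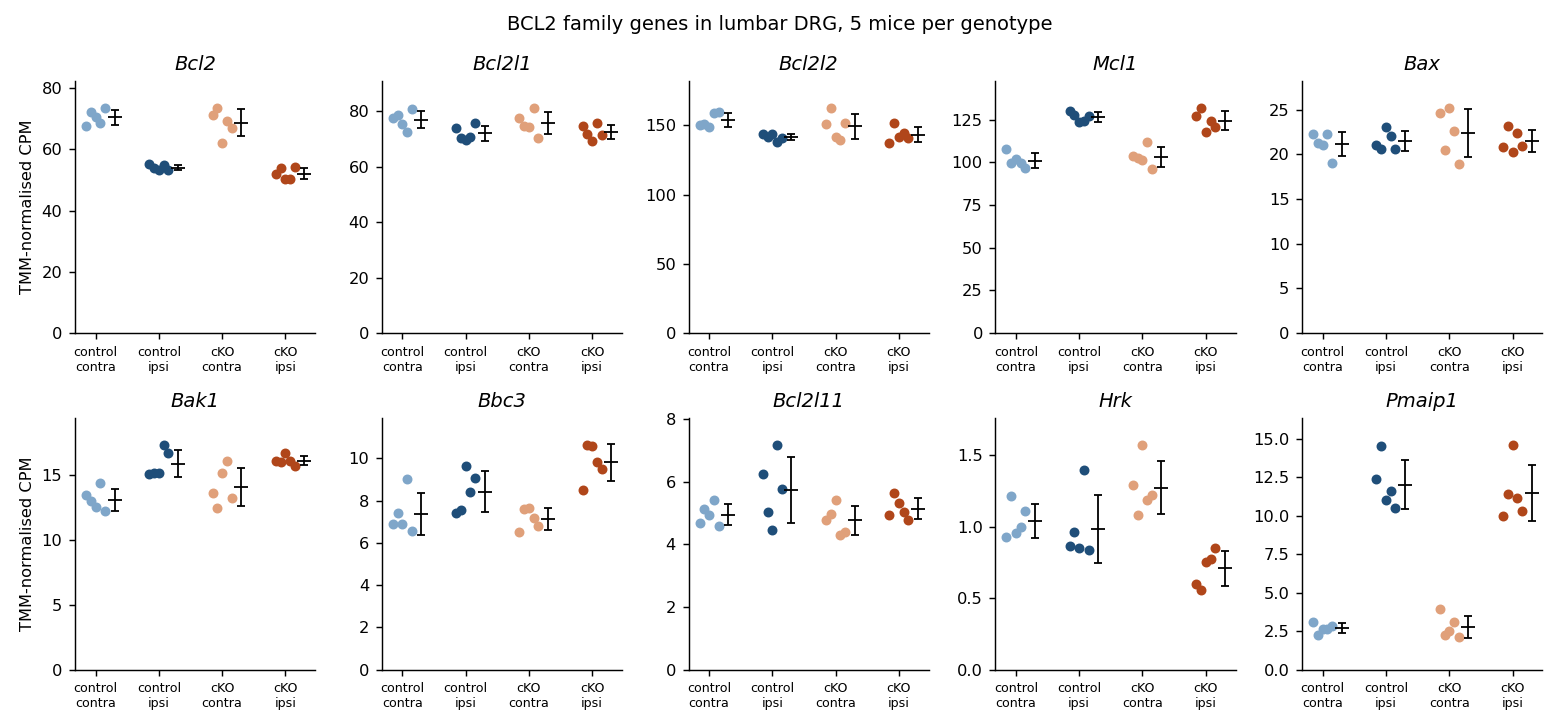
TMM-normalised CPM (vertical axes, each starting at 0) of the 10 members in the 4 groups; points are libraries, and the bar beside them is the mean ± SD (n = 5). Pmaip1, Mcl1 and Bcl2 separate the sides in both genotypes, and Hrk falls ipsilaterally in the cKO mice.

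Pmaip1, which encodes the BH3-only protein NOXA, rose most of the 10 members. In controls it stood at 3.13, 2.25, 2.67, 2.62 and 2.85 CPM contralaterally and at 12.4, 14.6, 10.99, 11.6 and 10.5 CPM ipsilaterally. In cKO mice the contralateral values were 3.92, 2.24, 2.51, 3.07 and 2.11 CPM and the ipsilateral ones 10, 11.4, 14.6, 11.1 and 10.3 CPM. Every ipsilateral library lay above every contralateral one. The log2 fold change was 2.15 in controls (SE 0.152, a 4.43-fold rise, edgeR adjusted p = 1.52e-09) and 2.05 in cKO mice (SE 0.151, 4.15-fold, edgeR adjusted p = 2.38e-09), and it was positive in 5 of 5 mice of each genotype. The 2 responses differed by -0.10 (95% interval -0.53 to 0.34, edgeR adjusted p = 0.902).

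Among the other BH3-only genes, Bbc3, whose product PUMA is a p53 target, rose after transection in the cKO mice, while neither its change in controls nor the difference between the genotypes passed the test. Contralaterally it stood at 6.91, 7.41, 6.91, 9.04 and 6.56 CPM in controls and 6.49, 7.61, 7.67, 7.16 and 6.79 CPM in cKO mice. Ipsilaterally it stood at 7.42, 7.56, 9.64, 8.40 and 9.08 CPM in controls and 8.49, 10.6, 10.6, 9.80 and 9.50 CPM in cKO mice. The sides did not overlap in the cKO mice and did overlap in the controls, where the third-highest library was contralateral. Bbc3 rose in cKO mice, by 0.46 on the log2 scale (SE 0.090, 1.37-fold, edgeR adjusted p = 0.000456, higher in 5 of 5 mice). In controls the log2 fold change was 0.19 (SE 0.090, edgeR adjusted p = 0.117, higher in 4 of 5 mice), and without mouse H96, whose contralateral library was the highest of the 5, it was 0.29 (edgeR adjusted p = 0.0231). Without H65 or H97 the control value was 0.12 or 0.13 (edgeR adjusted p = 0.403 and 0.393). The difference between the responses, 0.26 with a 95% interval from 0.0007 to 0.53, did not pass (edgeR unadjusted p = 0.0495, adjusted p = 0.51).

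Hrk, which encodes a neuronal BH3-only protein that binds BCL2 and BCL-XL, was the lowest of the 10 members per kb of exon and the one whose response to transection was furthest apart between genotypes. In controls it stood at 0.930, 1.21, 0.954, 0.996 and 1.11 CPM contralaterally and 0.867, 0.964, 0.847, 1.40 and 0.838 CPM ipsilaterally, in the order of mice H62, H63, H65, H96 and H97. In cKO mice it stood at 1.29, 1.08, 1.57, 1.19 and 1.22 CPM contralaterally and 0.601, 0.559, 0.754, 0.772 and 0.849 CPM ipsilaterally, in the order H100, H61, H64, H95 and H99. The cKO sides did not overlap, the control sides did, and mouse H96 alone among controls was higher ipsilaterally. Hrk fell in cKO mice, by 0.84 on the log2 scale (SE 0.151, to 0.560 of the contralateral level, edgeR adjusted p = 0.000196, lower in 5 of 5 mice). In controls the log2 fold change was -0.08 (SE 0.150, edgeR adjusted p = 0.751, lower in 4 of 5 mice). Leaving out 1 control mouse moved it between -0.25 (without H96, edgeR adjusted p = 0.246) and 0.0038 (without H97, edgeR adjusted p = 0.993). The interaction was -0.76 (SE 0.213, 95% interval -1.20 to -0.31); it had an unadjusted p of 0.00194 by edgeR and an adjusted p of 0.485 over all genes, so it was not called. These values rest on 52 to 124 counts per library.

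The same contrast was taken mouse by mouse, as the difference between the log2 CPM of the 2 ganglia of each mouse. For Hrk it was -0.099, -0.323, -0.167, 0.48 and -0.395 in the 5 controls and -1.075, -0.924, -1.039, -0.607 and -0.509 in the 5 cKO mice, and the genotypes did not overlap. How many of all genes lacked overlap in this measure was not counted, so whether this is unusual cannot be said. The means were -0.101 ± 0.346 (SD, n = 5) and -0.831 ± 0.258 (SD, n = 5). The difference of -0.73 gave a two-sided exact permutation p of 0.00794, the smallest that 252 splits of the 10 mice allow, in 1 of 10 such tests, one per member. Without mouse H96 the difference was -0.58 (exact permutation p = 0.0159). For Bbc3 the 5 cKO mice lay between 0.386 and 0.484 and the 5 controls between -0.107 and 0.48, a difference of 0.259 (exact permutation p = 0.127). Without control mouse H65 it was 0.330 and without H97 it was 0.328, each with an exact permutation p of 0.0317. Those mice had the highest control responses, 0.48 and 0.469, so leaving either out widens the difference. Over every mouse left out in turn, the Bbc3 difference ran from 0.1835 to 0.3302, with exact permutation p from 0.0317 to 0.167. The other 8 members gave differences of -0.084 to 0.060 with exact permutation p from 0.246 to 0.802.

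**Figure D2:**
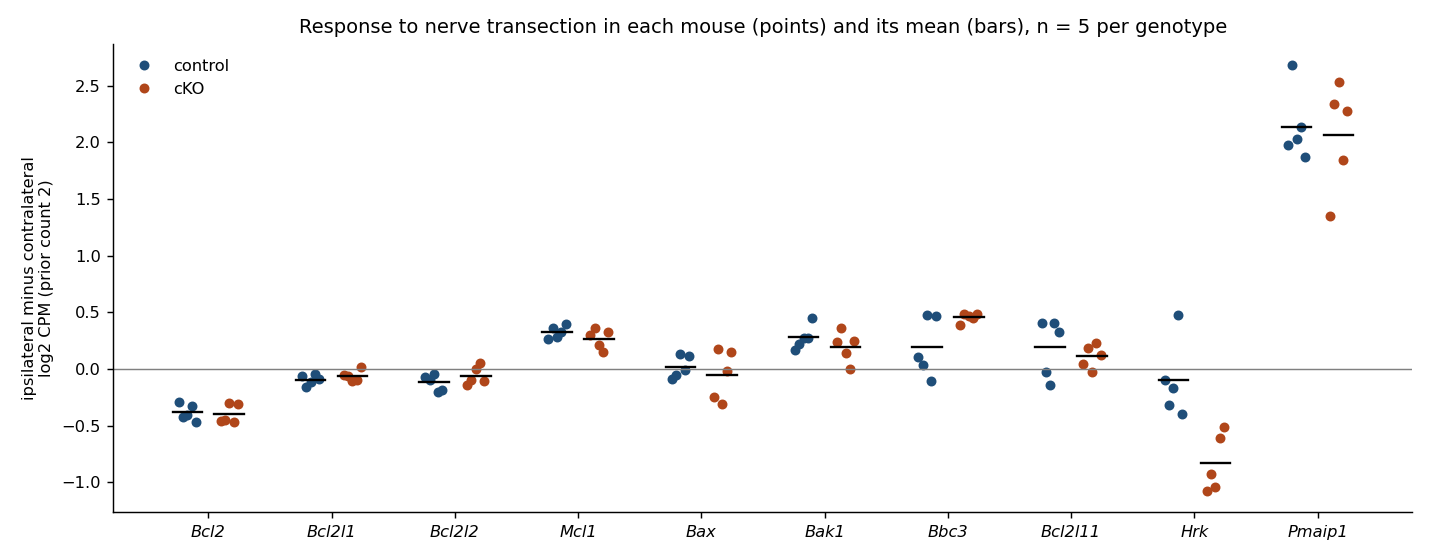
Ipsilateral minus contralateral log2 CPM (vertical axis, prior count 2) of each member in each mouse; blue points are the 5 controls, orange points the 5 cKO mice, and black bars the means. The genotypes overlap for 9 members and not for Hrk, whose means are -0.101 and -0.831. The share of all genes without overlap in this measure was not counted.

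Bcl2l11, which encodes BIM, was not called in any comparison. It ranged from 4.59 to 5.40 CPM in contralateral and 4.45 to 7.17 CPM in ipsilateral controls, and from 4.28 to 5.41 and 4.77 to 5.64 CPM in the cKO mice. The sides overlapped in both genotypes, with log2 fold changes of 0.21 (SE 0.099, edgeR adjusted p = 0.118) in controls and 0.11 (SE 0.099, edgeR adjusted p = 0.448) in cKO mice. Without mouse H65, the lowest ipsilateral control, the control value was 0.29 (edgeR adjusted p = 0.0323), and without H62, H96 or H97 it was 0.16, 0.16 and 0.19 (edgeR adjusted p = 0.332, 0.265 and 0.268).

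Of the anti-apoptotic members, Mcl1 rose and Bcl2 fell in both genotypes. Mcl1, whose protein turns over rapidly and is the preferred partner of NOXA, stood at 108.1, 99.5, 101.9, 99.5 and 96.5 CPM in contralateral and 130.2, 127.8, 123.5, 124.3 and 127.4 CPM in ipsilateral controls. In cKO mice it stood at 103.5, 102.9, 101.5, 112.0 and 96.3 CPM contralaterally and 127.2, 131.9, 117.6, 124.1 and 120.8 CPM ipsilaterally. No ipsilateral library fell within the contralateral range of its genotype. The log2 fold change was 0.33 in controls (SE 0.038, 1.253-fold, edgeR adjusted p = 1.21e-06) and 0.27 in cKO mice (SE 0.038, 1.20-fold, edgeR adjusted p = 1.38e-05), positive in 5 of 5 mice of each genotype.

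Bcl2, the founding survival gene of the family, went from 67.5, 72.1, 70.7, 68.6 and 73.4 CPM contralaterally to 55.1, 53.8, 53.2, 54.7 and 53.1 CPM ipsilaterally in controls. In cKO mice it went from 71.3, 73.5, 61.95, 69.3 and 67.1 CPM to 51.9, 53.7, 50.2, 50.2 and 54.2 CPM. The sides did not overlap in either genotype, and Bcl2 was lower on the injured side in 10 of 10 mice. The log2 fold change was -0.38 in controls (SE 0.038, edgeR adjusted p = 1.23e-07) and -0.40 in cKO mice (SE 0.038, edgeR adjusted p = 5.89e-08), so Bcl2 fell by 23.4% and fell by 24.2%. An antisense gene, D630008O14Rik, overlaps 6.09% of the exon bases of Bcl2 on the opposite strand; the strand setting of the counting is not given in the sources used here, so reads of the 2 genes there may have been pooled.

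Bcl2l2, whose protein BCL-W supports axon survival, fell slightly in controls. It stood at 150.4, 151.0, 148.5, 159.2 and 159.7 CPM contralaterally and 143.4, 141.3, 144.1, 138.3 and 140.8 CPM ipsilaterally, ranges that did not overlap, with a log2 fold change of -0.12 (SE 0.037, edgeR adjusted p = 0.0175). The call was lost without mouse H63, H96 or H97 (edgeR adjusted p = 0.0557, 0.13 and 0.109). In cKO mice the sides overlapped and the log2 fold change was -0.06 (SE 0.037, edgeR adjusted p = 0.235). Gm20521, a gene on the same strand, shares 13.3% of the exon bases of Bcl2l2, so how the counts were split between them is uncertain.

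Bcl2l1, whose product BCL-XL is required for the survival of many neurons, was not called. Its group means were 77.0 ± 3.05 and 72.1 ± 2.63 CPM (SD, n = 5) in the contralateral and ipsilateral controls and 75.6 ± 3.96 and 72.5 ± 2.64 CPM in the cKO mice. Its log2 fold change was -0.10 in controls (SE 0.038, edgeR adjusted p = 0.0637, lower in 5 of 5 mice) and -0.06 in cKO mice (SE 0.038, edgeR adjusted p = 0.239). In a fit with mouse as a block, which pairs the 2 sides of each mouse, the control fall of Bcl2l1 passed, with the same log2 fold change of -0.10 and an edgeR adjusted p of 0.0178.

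The effectors split. Bak1 rose from 13.4, 13.0, 12.5, 14.4 and 12.2 CPM to 15.1, 15.2, 15.2, 17.3 and 16.7 CPM in controls, without overlap, a log2 fold change of 0.28 (SE 0.062, 1.21-fold, edgeR adjusted p = 0.0016). In cKO mice it went from 13.6, 12.5, 15.2, 16.1 and 13.3 CPM to 16.1, 16.0, 16.7, 16.1 and 15.7 CPM, and the sides overlapped. The cKO log2 fold change of 0.19 (SE 0.062, edgeR adjusted p = 0.0226) was positive in 5 of 5 mice, and its call was lost without mouse H100, H61 or H99 (edgeR adjusted p = 0.0774, 0.0955 and 0.0533). The call was lost, too, on log2 FPKM (limma adjusted p = 0.0819 with a pseudocount of 1). Ggnbp1 has 2 annotated entries, which lie on the opposite strand over 7.35% and 18.2% of the exon bases of Bak1, with the same uncertainty.

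Bax was not called in any comparison. It ranged from 19.0 to 22.3 CPM in contralateral and 20.6 to 23.1 CPM in ipsilateral controls, and from 18.9 to 25.2 and 20.3 to 23.2 CPM in the cKO mice. The log2 fold changes were 0.02 (95% interval -0.12 to 0.16) in controls and -0.06 (95% interval -0.20 to 0.08) in cKO mice. Gm45808, on the same strand, shares 12.2% of the exon bases of Bax.

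Between genotypes no member was called on either side. Contralaterally 0 of 10 members were called by edgeR, 0 had an unadjusted p under 0.05 (5006 of 28564 genes in all), and DESeq2 and limma-voom called 0, where edgeR called 0.0735% of all genes and DESeq2 called 1041 of 28564 genes. The smallest adjusted p was 0.325, for Hrk (log2 fold change 0.29, 95% interval -0.02 to 0.60). Ipsilaterally 0 of 10 were called by edgeR, DESeq2 or limma-voom, against 0.00700% of all genes, and 2 had an unadjusted p under 0.05 (674 of 28564 genes in all). These were Hrk, at -0.47 (95% interval -0.79 to -0.15), and Bbc3, at 0.22 (95% interval 0.03 to 0.41), each with an edgeR adjusted p of 1.0. No member's genotype groups were free of overlap, against 1.52% of all genes contralaterally and 0.599% ipsilaterally. In the interaction 0 of 10 were called by edgeR, DESeq2 or limma-voom and 2 had an unadjusted p under 0.05, again Hrk and Bbc3 (2799 of 28564 genes in all), where edgeR called 0% of all genes and DESeq2 called 11 genes. A p above the threshold does not show that the genotypes were alike: for Pmaip1 the ipsilateral interval still ran from -0.36 to 0.24, and for Mcl1 from -0.11 to 0.05.

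**Figure D3:**
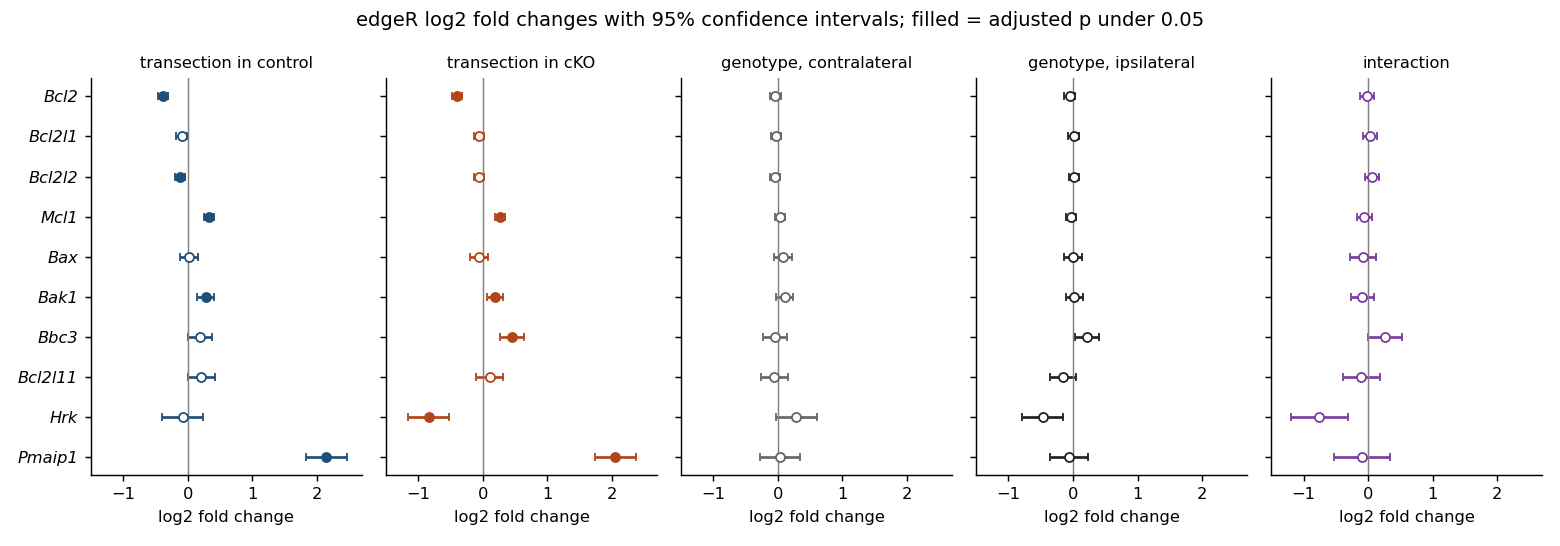
Log2 fold change (horizontal axes) of each member in the 5 comparisons, with 95% confidence intervals from the edgeR fit of all 20 libraries; filled points have an adjusted p under 0.05. Calls are seen in the 2 transection panels, and none in the genotype and interaction panels.

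Levels of different genes were compared as CPM per kb of merged exons, from the GENCODE M21 gene models of GRCm38, since longer transcripts give more reads. The identifiers of the count table are of newer versions than M21 for all 10 members, so these lengths may not be those of the annotation counted, and levels per kb, their order and their sums are approximate. In contralateral controls the order of these length-scaled levels was Bcl2l2 (34.5 ± 1.18, SD, n = 5), Mcl1 (29.6 ± 1.28), Bcl2l1 (16.8 ± 0.665), Bax (13.4 ± 0.845), Bcl2 (7.69 ± 0.265), Bak1 (5.44 ± 0.351), Bbc3 (3.47 ± 0.464), Pmaip1 (0.990 ± 0.118), Bcl2l11 (0.616 ± 0.041) and Hrk (0.183 ± 0.021). No neighbours in this order overlapped. In contralateral cKO mice the order was the same, but Bcl2l2 overlapped Mcl1 and Bcl2l1 overlapped Bax. On the injured side Mcl1 came first in both genotypes (37.1 ± 0.792 and 36.4 ± 1.62 CPM per kb), above Bcl2l2 without overlap, and Bak1 stood above Bcl2 without overlap. Pmaip1 reached 4.39 ± 0.585 CPM per kb in ipsilateral controls and 4.2 ± 0.672 in ipsilateral cKO mice, overlapping Bbc3 in both.

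**Figure D4:**
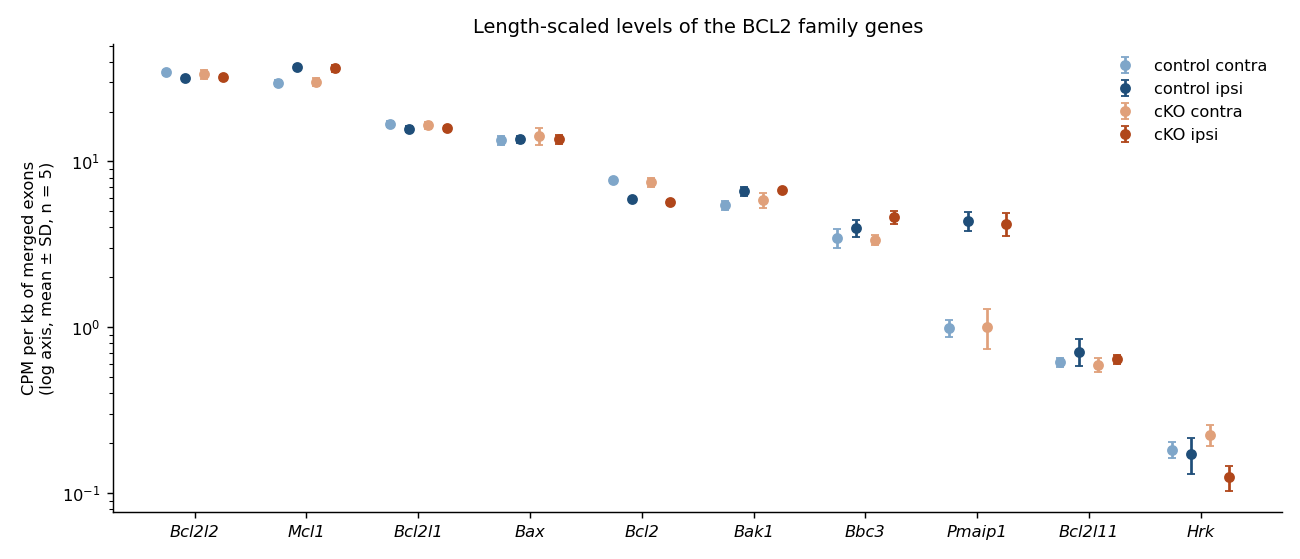
CPM per kb of merged exons (log axis) of the 10 members in the 4 groups; points are means and bars ± SD (n = 5). Bcl2l2, Mcl1, Bcl2l1 and Bax lie highest in each group, and Pmaip1 moves from 0.990 to 4.39 in controls, to the level of Bbc3.

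The length-scaled levels of the anti-apoptotic members, of the effectors and of the BH3-only members were also summed. The anti-apoptotic sum was 88.5 ± 1.06 CPM per kb contralaterally and 90.4 ± 1.43 ipsilaterally in controls (SD, n = 5), and 87.7 ± 2.80 and 89.9 ± 2.73 in cKO mice. The effector sum was 18.9 ± 1.15 and 20.2 ± 0.821 in controls and 20.1 ± 2.09 and 20.3 ± 0.731 in cKO mice. For the BH3-only members the sum was 5.26 ± 0.465 and 9.24 ± 0.298 in controls and 5.19 ± 0.280 and 9.58 ± 1.04 in cKO mice. As a percentage of the anti-apoptotic sum it went from 5.94 to 10.2 in controls and from 5.93 to 10.7 in cKO mice. The ratio of Mcl1 to Bcl2 went from 3.85 ± 0.285 to 6.29 ± 0.135 in controls and from 4.04 ± 0.296 to 6.40 ± 0.275 in cKO mice. The ratio of Pmaip1 to Mcl1 went from 0.034 to 0.118 and from 0.033 to 0.116. These sums and ratios are descriptions and were not tested; they count transcripts, not proteins.

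The promoters of the members were read from RefSeq (GRCm38.p6) as windows of 300 bases, 250 before and 50 after each annotated start, and 9 of 10 members matched (all but Pmaip1), with 14 windows. 5 motifs were searched on both strands. The AP-1 motif TGANTCA was in 0 of 14 member windows, against 7.81% of 32851 windows of all genes, and the ATF/CRE motif TGACGTCA in 0 of 14, against 1.79%. The core of the AhR response element, GCGTG, was in 7 windows of 4 members (Bbc3, Bcl2l11, Bcl2l1 and Hrk), against 32.4% of all windows. The FOXO motif GTAAACA was in 2 windows (all genes 3.65%) and the E-box CACGTG in 2 (7.15%). 3 windows are shown, with motifs in capitals. The first is for Hrk, which had the smallest unadjusted p of the per-mouse permutation tests and was not called in the interaction. The others are for Bbc3, with the next largest interaction, also not called, and for Bcl2l11, the third BH3-only gene matched. Where a member had several windows, the one with the most motif matches was taken. The Bbc3 window shown holds 4 AhR cores (its other 2 windows hold 1 each), the Bcl2l11 window shown holds 3, the first of which overlaps the FOXO motif (its other window holds 0), and the single Hrk window holds 1, starting 13 bases after the start site. A match of so short a motif is a description of letters, not of binding.
Hrk, chr5:118169514-118169813, plus strand: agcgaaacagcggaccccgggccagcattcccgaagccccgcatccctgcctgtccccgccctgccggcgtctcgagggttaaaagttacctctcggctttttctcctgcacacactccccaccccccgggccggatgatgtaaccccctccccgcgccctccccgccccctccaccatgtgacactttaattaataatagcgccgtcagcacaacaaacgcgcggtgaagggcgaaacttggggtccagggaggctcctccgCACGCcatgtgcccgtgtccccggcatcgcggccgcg
Bbc3, chr7:16309333-16309632, plus strand: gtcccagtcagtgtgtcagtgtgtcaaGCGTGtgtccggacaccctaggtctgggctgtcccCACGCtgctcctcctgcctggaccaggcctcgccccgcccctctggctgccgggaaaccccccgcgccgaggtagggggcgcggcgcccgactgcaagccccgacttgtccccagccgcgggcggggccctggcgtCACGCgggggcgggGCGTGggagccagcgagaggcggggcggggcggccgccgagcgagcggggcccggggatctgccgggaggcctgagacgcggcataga
Bcl2l11, chr2:128125788-128126087, plus strand: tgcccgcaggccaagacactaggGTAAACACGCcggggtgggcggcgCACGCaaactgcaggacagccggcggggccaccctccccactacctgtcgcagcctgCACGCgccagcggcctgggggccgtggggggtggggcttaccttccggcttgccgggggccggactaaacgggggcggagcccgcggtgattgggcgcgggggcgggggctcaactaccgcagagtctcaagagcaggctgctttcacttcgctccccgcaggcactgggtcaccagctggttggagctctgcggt

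The wider death machinery was counted over 6 lists of genes, to be read against the share of all genes called, 13.8% higher and 16.0% lower in controls and 16.2% and 15.1% in cKO mice. In controls 6 of 14 apoptosome and caspase genes were called higher and 2 lower, and in cKO mice 5 and 1, with medians of 0.16 and 0.12 on the log2 scale. Casp6, an executioner caspase linked to axon degeneration, rose from 3.56 ± 0.427 to 7.97 ± 0.264 CPM in controls (SD, n = 5), a log2 fold change of 1.16 (SE 0.094), and by 0.91 (SE 0.093) in cKO mice. Apaf1, the scaffold that cytochrome c turns into the apoptosome, rose by 0.51 and 0.52. Endog, a mitochondrial nuclease, fell by 0.12 and 0.23; its control call (edgeR adjusted p = 0.049) was lost in the fit with mouse as a block (-0.12, edgeR adjusted p = 0.0739) and without mouse H62, H63, H65 or H96 (edgeR adjusted p from 0.118 to 0.171).

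Of 13 other BCL2 relatives tested, 0 were called higher and 4 lower in each genotype by edgeR, and the same counts came from DESeq2 and limma-voom; 1 was higher in each at an unadjusted p under 0.05. Bid, which links death receptors to mitochondria, fell by 0.38 in controls and 0.27 in cKO mice, Bad, a BH3-only protein held inactive by survival kinases, by 0.35 and 0.18, and Bcl2l14 by 0.62 and 0.30. The cKO call of Bcl2l14 was lost without mouse H61, H64 or H99 (edgeR adjusted p = 0.0579, 0.099 and 0.088). Of 9 inhibitor of apoptosis genes tested, 0 were called higher and 2 lower in each genotype. These were Xiap, a direct caspase inhibitor, at -0.13 and -0.10, and Birc2 (cIAP1), at -0.20 and -0.14. DESeq2 and limma-voom gave the same counts, and at an unadjusted p under 0.05 edgeR had 1 gene higher in controls and 0 in cKO mice. The cKO call of Birc2 was lost without mouse H61 (edgeR adjusted p = 0.0675).

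Of 16 genes of the p53 pathway, 9 were called higher and 3 lower in each genotype, with medians of 0.21 and 0.20. Gadd45a, a stress-induced growth arrest gene, rose from 18.7 ± 1.55 to 150.1 ± 5.22 CPM in controls, a log2 fold change of 3.001 (SE 0.061), and by 3.08 (SE 0.062) in cKO mice. Cdkn1a (p21) rose by 1.35 and 1.42 and Sesn2 by 1.32 and 1.04. Sesn1, Polk and Rrm2b fell, by 0.34, 0.29 and 0.21 in controls and 0.40, 0.27 and 0.19 in cKO mice.

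Among 19 stress kinases and transcription factors that act on BH3-only genes, 7 were called higher and 7 lower in controls and 8 and 3 in cKO mice, with medians of 0.00 and -0.03. Atf3, an early injury factor of axotomised neurons, rose from 11.4 ± 1.81 to 426.3 ± 12.8 CPM in controls and from 9.23 ± 0.629 to 416.8 ± 40.0 CPM in cKO mice. Jun rose by 1.51 and 1.70, and Trib3, a stress pseudokinase, by 1.07 and 1.18. Foxo3 fell by 0.31 and 0.21, E2f1 by 0.22 and 0.15, and Map3k12 (DLK), the kinase upstream of JNK in injured axons, by 0.16 and 0.09. In cKO mice the call of E2f1 was lost without mouse H61 or H99 (edgeR adjusted p = 0.0658 and 0.0709) and that of Map3k12 without H95 (edgeR adjusted p = 0.0522). Jun was the one gene of the 6 lists that edgeR called in a genotype comparison (DESeq2 called 2 higher and 3 lower contralaterally): contralaterally it stood at 102.8 ± 4.05 CPM in controls and 89.2 ± 3.66 CPM in cKO mice (log2 fold change -0.21, SE 0.036, edgeR adjusted p = 0.0278). The call was lost when the contralateral libraries were fitted alone (edgeR adjusted p = 0.392). It was lost as well without each of mice H100, H62, H63, H64, H65, H95, H96 and H97 (edgeR adjusted p from 0.0612 to 0.181).

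Of 12 death receptors and adaptors tested, 6 were called higher and 2 lower in controls and 4 and 1 in cKO mice, with medians of 0.29 and 0.04. Tnfrsf1b rose by 1.02 and 1.05, Tnfrsf10b, the mouse TRAIL receptor, by 0.92 and 0.85, and Tnfrsf1a by 0.61 and 0.37. Cflar, an inhibitor of caspase activation at these receptors, fell by 0.14 and 0.15. Whether any list's response differed between genotypes was tested gene by gene in the interaction. There edgeR, DESeq2 and limma-voom each called 0 of 83 genes. By edgeR 6 were higher and 5 lower at an unadjusted p under 0.05, beside 2799 of 28564 genes in all. Among the stress kinases and transcription factors 17 of 19 lay above 0 in the interaction, with 3 higher and 0 lower at that threshold. Contralaterally 2 of these 19 lay above 0 between genotypes, with 0 higher and 8 lower, beside 5006 of 28564 genes in all. Death receptors and adaptors had 0 higher and 2 lower in the interaction. As shifts of whole lists, these were not tested.

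**Figure D5:**
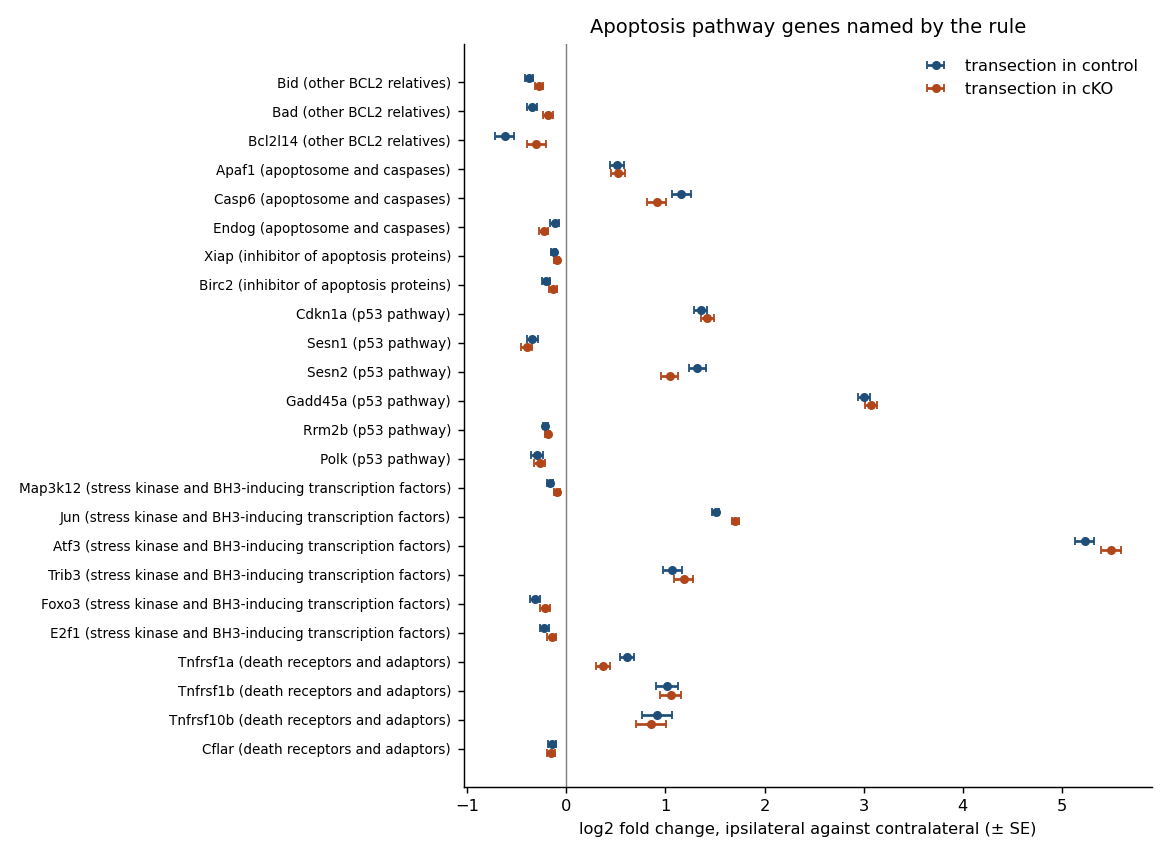
Log2 fold change, ipsilateral against contralateral (horizontal axis, ± SE), of the named pathway genes in controls (blue) and cKO mice (orange). Atf3 and Gadd45a lie furthest to the right, and the sign is the same in both genotypes because the genes were chosen so.

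The genes whose log2 CPM ran most like that of a member over the 20 libraries were found among 13110 genes that averaged 5 CPM or more. These correlations are descriptions and carry no test; the 20 points share mice and the side of injury. Nearest to Pmaip1 were Igfbp3 (Pearson r = 0.991), Stmn4 (0.990) and Smim3 (0.990). Nearest to Mcl1 were Xbp1 (0.978), Myd88 (0.964) and Stx11 (0.963), and nearest to Bcl2 were Paqr7 (0.975), Pomk (0.971) and Tmtc1 (0.971). Bak1 ran nearest to Wtip (0.931), Bcl2l2 to A230056P14Rik (0.945), Bax to Rpl36al (0.876), Bbc3 to Toe1 (0.870), Hrk to Ccni (0.859), Bcl2l1 to Sgk1 (0.846) and Bcl2l11 to Tm7sf3 (0.734).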

How the data were processed

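Raw exonic read counts per gene, as deposited by the authors, were used for all 20 libraries; per the labels' protocols these were stranded poly(A) libraries read as pairs of 150 bases. HISAT2 and Picard are named in the submitters' processing notes, with builds mm10 and mm39 and no roles; the counting tool and its strand setting are not given in the sources used here. FPKM values deposited by the authors served for an alternative alone. Counts were fitted with edgeR 4.0.16 in R 4.3.3 (TMM, filterByExpr with a minimum count of 10, quasi-likelihood F-test), with 1 fit of the 4 groups of 5 and p-values adjusted by Benjamini-Hochberg over 28564 genes. Intervals are 95%. Both sides of a mouse share the animal, which is where the pairing comes from; within a mouse, deviations from the group mean correlated across genes with a median r of 0.186 (-0.0546 to 0.361), above 0.1 in 7 of 10 mice. Per-mouse responses used log2 CPM with a prior count of 2 and exact permutation tests over mice. Named pathway genes were, per list, up to 3 in each direction with the most extreme mean of the 2 transection log2 fold changes, among genes called with the same sign in both genotypes, and any called between genotypes. One gene that this rule names is not reported here. Alternatives were DESeq2 1.42.0, limma 3.58.1 (voom, and log2 FPKM with pseudocounts of 1 and 0.1), RLE scaling, other filters, mouse as a block, a term for the range of mouse numbers, fits of the compared libraries alone, and each mouse left out. The fitting was tested on simulated data. The members and lists were chosen with earlier results of these data known.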

Additional observations from a re-analysis of the deposited data

Results flagged for a closer look

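Hrk in the ipsilateral ganglia of control mouse H96 stood apart from the other 4 control mice. At 1.40 CPM, against 0.838 to 0.964 CPM in those mice, its gap to the nearest was 0.774 of the group's range, above Dixon's critical value of 0.71 for 5 samples. It was 1 of 60 groups examined this way, of which chance would give about 3.

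The Hrk response to transection differed by -0.73 between cKO and control mice, with an exact permutation p of 0.00794 over mice. This is the smallest p the design can give, it is not adjusted, and it was 1 of 10 such tests. The interaction over all genes did not call it (edgeR adjusted p = 0.485).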

How the results depend on the processing

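Of 870 values of the members under other settings, 835 kept their direction and their side of the threshold, 8 lost and 4 gained a call, 23 uncalled values moved across 0, and 0 called values reversed. Members called after transection ranged from 4 to 6 in controls and 5 to 6 in cKO mice over all settings, and stayed at 0 in the genotype and interaction comparisons. Sizes moved more than calls: on log2 FPKM with a pseudocount of 1, which shrinks the change of low genes, Pmaip1 in controls was 0.95 (2.15 by edgeR on counts), Hrk in cKO mice -0.033 (-0.84) and the Hrk interaction -0.029 (-0.76). With mouse as a block, Bcl2l1 in controls was the one member whose call changed. With each mouse left out, the per-mouse difference between genotypes ran from -0.037 to 0.0084 for Bcl2, 0.1835 to 0.3302 for Bbc3 and -0.1868 to 0.1093 for Pmaip1. Over all genes, the contralateral genotype comparison called 21 genes by edgeR, 1041 by DESeq2, 50 with no filter, 45 at a mean of at least 1 CPM, 6 and 7 on log2 FPKM, 2 from the contralateral libraries alone, and 5 to 3332 with a mouse left out (3332 without H99). The interaction called 0 genes by edgeR, 11 by DESeq2 and 43 without H99. The cause was not tested. With 5 mice a group, the interval of an interaction was about 0.11 to either side for Bcl2 and 0.44 for Hrk, the member with fewest counts.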
